A study of Oncorhynchus mykiss with 28 samples.

Results

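Clones tcac0001.c.18, 1RT159P21_B_H11 and tcbk0051.e.02 are 3 of the 8350 rainbow trout (Oncorhynchus mykiss) cDNA clones that could be tested on these arrays, out of 9023 clone rows. They were selected on the measured array signals of these samples, as clones without a gene symbol in the study's list of clones whose egg mRNA abundance differed between ovulation groups. The group values described here are thus the values the clones were chosen by, and they are given without a test. Clone names are those of the array. Tests are given only for measures the selection did not use, which are the relation of each clone to the developmental success of the eggs within a group and the relation of the clones to each other within a group. All 3 clones had a signal above 0 on all 28 arrays, so that no member was lost to the filter on missing values.

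The RNA on each array came from a pool of 60 unfertilized eggs that 1 female of an autumn-spawning strain produced. The 4 females of the N group ovulated naturally. The 10 females of the HI group were induced to ovulate by an intraperitoneal injection of a gonadotropin-releasing hormone analog. The 14 females of the PM group ovulated early after a manipulated photoperiod, constant light followed by short days. The sources used here do not state the age of the females. Eggs of each female were also fertilized, and the labels give the share of embryos that reached the eyed stage and, at yolk-sac resorption, the shares of malformed and of normal alevins. Normal alevins were 95.9 to 98.8% in N eggs, 2 to 95.4% in HI eggs and 0 to 93.8% in PM eggs. All HI samples carry the year 2004 and all N and PM samples the year 2003, so that the HI treatment and the year cannot be told apart. The study states for PM females only that they had reproduced before and were kept in light-proofed tanks. It states for N and HI females only a move to recirculated water some weeks before expected ovulation. The PM treatment cannot be told apart from this holding and history. N replicate 1 and PM replicate 4 have 1 female number in common, and the group differences, the slopes on normal alevins over all groups and within PM, and the PM correlations between the clones are also given without them.

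An unfertilized fish egg carries mRNAs that the mother laid down during oogenesis. The embryo relies on this maternal store through its first cleavages, before its own genome is transcribed. In a natural cycle, day length sets the season of ovulation and a surge of luteinizing hormone triggers final maturation. A gonadotropin-releasing hormone analog acts at the pituitary, where it releases luteinizing hormone, whereas a light regime acts on the calendar of the whole reproductive cycle.

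The translated sequence of tcac0001.c.18 was matched by the study to a yeast protein, which carried no functional name in the protein database at the time and was annotated to the import of proteins into the mitochondrial matrix. In budding yeast that protein is known as Tam41, which acts in the synthesis of the mitochondrial phospholipid cardiolipin and is needed for protein import. No role of the trout transcript is known from the sources used here. Real-time PCR of tcac0001.c.18 and 1RT159P21_B_H11 was not analysed here. The study measured both clones by real-time PCR and reports that these data did not correlate with its array data. It calls their patterns in PCR and on the arrays totally inconsistent. The array values of both clones are thus not backed by the other measurement made on the same RNA. For tcbk0051.e.02 the study lists no real-time PCR. It states that PCR data of the array genes it did not keep were left out for methodological reasons. The array values of tcbk0051.e.02 were thus not checked in this way. No protein match is listed for 1RT159P21_B_H11 and tcbk0051.e.02, and no function is assigned to them here. A spotted cDNA also binds labelled cDNA of near-identical paralogs, which are common in the duplicated trout genome, and the array signal cannot separate them. Signals were divided by the array median, so that a log2 signal of 0 is the median clone of an array. Levels are compared between samples for 1 clone at a time, never between clones. A lower signal in all eggs of a pool and a lack of the transcript in some of the eggs cannot be told apart.

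Clone tcac0001.c.18 had its highest mean in N eggs, an intermediate mean in HI eggs and its lowest mean in PM eggs. The 4 N females had log2 signals of 2.46, 2.30, 1.94 and 2.10. Among the 10 HI females the log2 signal ran from 1.14 to 3.08 with a median of 1.73, and among the 14 PM females from 1.27 to 2.63 with a median of 1.51. The N values lay close together and above most of the others, since 6 of the 10 HI females and 11 of the 14 PM females were below the lowest N female. The HI group held both the highest and the lowest value of the 28 females.

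The mean log2 signal of tcac0001.c.18 was 2.20 ± 0.23 (SD, n = 4) in N eggs, 1.94 ± 0.55 (n = 10) in HI eggs and 1.67 ± 0.39 (n = 14) in PM eggs. PM minus N was -0.53 (standard error 0.226), which is a PM signal of 0.692 times the N signal. HI minus N was -0.26 (standard error 0.236) and HI minus PM was 0.27 (standard error 0.165). In the order N, HI, PM, neighbouring groups overlapped and their means were less than 1 SD of the HI group apart. The HI differences also moved with single females, in both directions. Without HI replicate 8, the female with the highest signal, HI minus PM was 0.15 and HI minus N was -0.38. Without HI replicate 4, the lowest, HI minus N was -0.17 and HI minus PM was 0.36. HI minus N was also -0.17 without N replicate 1.

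Clone 1RT159P21_B_H11 was highest in HI eggs and lowest in PM eggs. Its log2 signal was 2.43, 3.26, 2.92 and 2.44 in the 4 N females. It ran from 2.72 to 3.34 with a median of 2.96 in HI females and from 2.03 to 3.04 with a median of 2.40 in PM females. The HI females were the most uniform group. All 10 lay above the PM median, and 12 of the 14 PM females lay below the lowest HI female. The exceptions were PM replicate 4 with 3.04 and PM replicate 7 with 3.03. The N females split, with a pair near the PM median and a pair inside the HI range.

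The mean log2 signal of 1RT159P21_B_H11 was 2.76 ± 0.40 (SD, n = 4) in N eggs, 2.98 ± 0.18 (n = 10) in HI eggs and 2.45 ± 0.31 (n = 14) in PM eggs. HI minus PM was 0.53 (standard error 0.112), a HI signal of 1.44 times the PM signal. HI minus N was 0.22 (standard error 0.16) and PM minus N was -0.31 (standard error 0.153). In the order HI, N, PM, the neighbours overlapped and the N mean was within 1 SD of the N group of both other means. These differences from N turned on single N females. Without N replicate 2, HI minus N was 0.39 and PM minus N was -0.14, and without N replicate 1 or N replicate 4, HI minus N was 0.11.

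Clone tcbk0051.e.02 had the opposite order, highest in PM eggs and lowest in HI eggs. Its log2 signal was 1.70, 1.23, 1.37 and 1.12 in the 4 N females. It ran from 0.21 to 1.59 with a median of 0.97 in HI females and from 0.85 to 2.45 with a median of 1.68 in PM females. No HI female reached the PM median. Of the 14 PM females, 9 lay above the highest HI female, and of the 10 HI females, 8 lay below the lowest N female. PM replicate 4, with 0.85, was the 1 PM female below the HI median.

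The mean log2 signal of tcbk0051.e.02 was 1.35 ± 0.25 (SD, n = 4) in N eggs, 0.88 ± 0.42 (n = 10) in HI eggs and 1.69 ± 0.39 (n = 14) in PM eggs. HI minus PM was -0.80 (standard error 0.146), a HI signal of 0.573 times the PM signal and the largest of the 9 group differences of the 3 clones. HI minus N was -0.47 (standard error 0.208) and PM minus N was 0.34 (standard error 0.199). In the order PM, N, HI the neighbours overlapped, and PM minus N was smaller than the SD of the PM females.

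**Figure D1:**
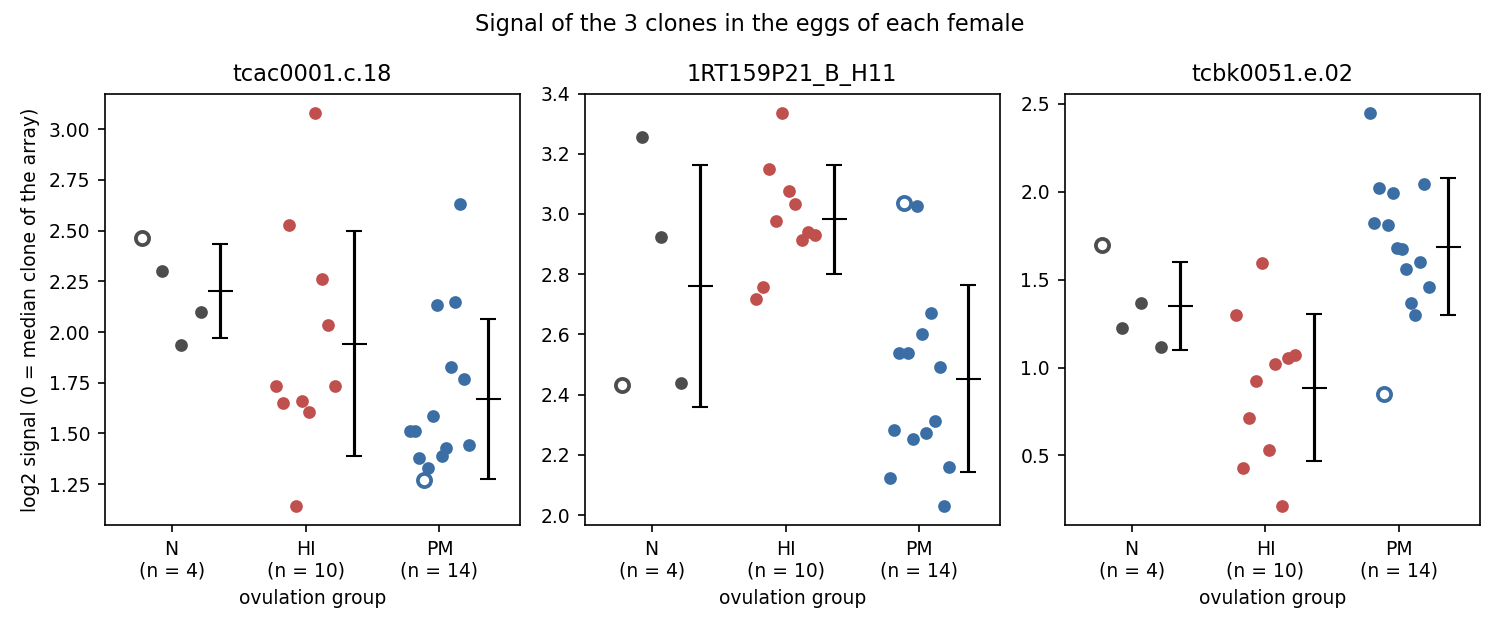
Log2 signal (y axis, 0 is the median clone of the array) of each clone in the eggs of each female, by ovulation group (x axis), with 1 point per female and, beside each group, the mean with 1 SD. Open circles are N replicate 1 and PM replicate 4, which share a female number. The groups overlap for all 3 clones, with HI highest for 1RT159P21_B_H11 and lowest for tcbk0051.e.02.

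The HI and N groups overlapped for all 3 clones, as did the PM and N groups and the HI and PM groups. Over all 8350 clones the groups did not overlap for 0.275% between HI and N, 0.0838% between PM and N and 0.0359% between HI and PM. These contrasts chose the clones, so that nothing is read from the comparison.

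The samples that share a female number stood out for 2 of the clones. For tcbk0051.e.02, N replicate 1 (1.70) was the highest N female and PM replicate 4 (0.85) the lowest PM female. For 1RT159P21_B_H11, N replicate 1 (2.43) was the lowest N female and PM replicate 4 (3.04) the highest PM female. In both clones these samples lay closer to the mean of the opposite group (N or PM) than to that of their own. Of all group means, PM replicate 4 was nearest to that of HI, which was 0.88 for tcbk0051.e.02 and 2.98 for 1RT159P21_B_H11. For tcac0001.c.18, N replicate 1 (2.46) was the highest N female and PM replicate 4 (1.27) the lowest PM female, so that each was on the far side of its own group. Whether a label is wrong was not tested.

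Without both samples, PM minus N was 0.51 in place of 0.34 for tcbk0051.e.02, -0.46 in place of -0.31 for 1RT159P21_B_H11 and -0.41 in place of -0.53 for tcac0001.c.18. HI minus PM was -0.87 for tcbk0051.e.02, 0.58 for 1RT159P21_B_H11 and 0.24 for tcac0001.c.18. HI minus N was -0.35, 0.11 and -0.17, in the same order. Among the remaining females, 8 of the 10 HI females were below the lowest of 13 PM females for tcbk0051.e.02, against 4 with all PM females. For 1RT159P21_B_H11, 4 of the 10 HI females lay above all 13 PM females.

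The groups also differed in the quality of their eggs, and HI and PM eggs were set against each other at similar quality. Among females with 80% normal alevins or more, 1RT159P21_B_H11 was 2.98 ± 0.07 (SD, n = 5) in HI eggs and 2.25 ± 0.20 (n = 4) in PM eggs, with ranges of 2.92 to 3.08 and 2.03 to 2.49. In the same females tcbk0051.e.02 was 0.78 ± 0.39 in HI eggs and 1.60 ± 0.32 in PM eggs, with ranges of 0.21 to 1.07 and 1.30 to 2.04. The HI and PM ranges of good eggs thus did not overlap for 2 of the 3 clones, beside 4.75% of all 8350 clones, and the contrast is the one that chose them. For tcac0001.c.18 the good eggs overlapped, with 2.14 ± 0.58 in HI eggs and 2.00 ± 0.51 in PM eggs.

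Among females below 50% normal alevins, all 3 clones overlapped between HI (n = 5) and PM eggs (n = 9), beside 2.05% of all clones that did not overlap. The mean of 1RT159P21_B_H11 was 2.99 ± 0.26 in HI eggs and 2.52 ± 0.33 in PM eggs, and that of tcbk0051.e.02 was 0.99 ± 0.46 and 1.76 ± 0.43. HI minus PM for 1RT159P21_B_H11 was 0.73 in good eggs and 0.47 in poor eggs, and for tcbk0051.e.02 it was -0.82 and -0.77. For tcac0001.c.18 it was 0.14 and 0.24. The difference between good and poor eggs was not tested as such.

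The N eggs, all of high quality, are nearest in quality to the good eggs of the other groups. With only females at 80% or more, tcac0001.c.18 differed from N by -0.06 in HI eggs and by -0.20 in PM eggs, where all females gave -0.26 and -0.53. For 1RT159P21_B_H11 the PM minus N difference was -0.51 in good eggs and -0.31 with all females. Its HI minus N difference was 0.22 in good eggs and 0.22 with all females. For tcbk0051.e.02 the HI minus N difference was -0.58 in good eggs and -0.47 with all females. The PM minus N difference of tcbk0051.e.02 was smaller in good eggs, with 0.25 against 0.34.

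**Figure D2:**
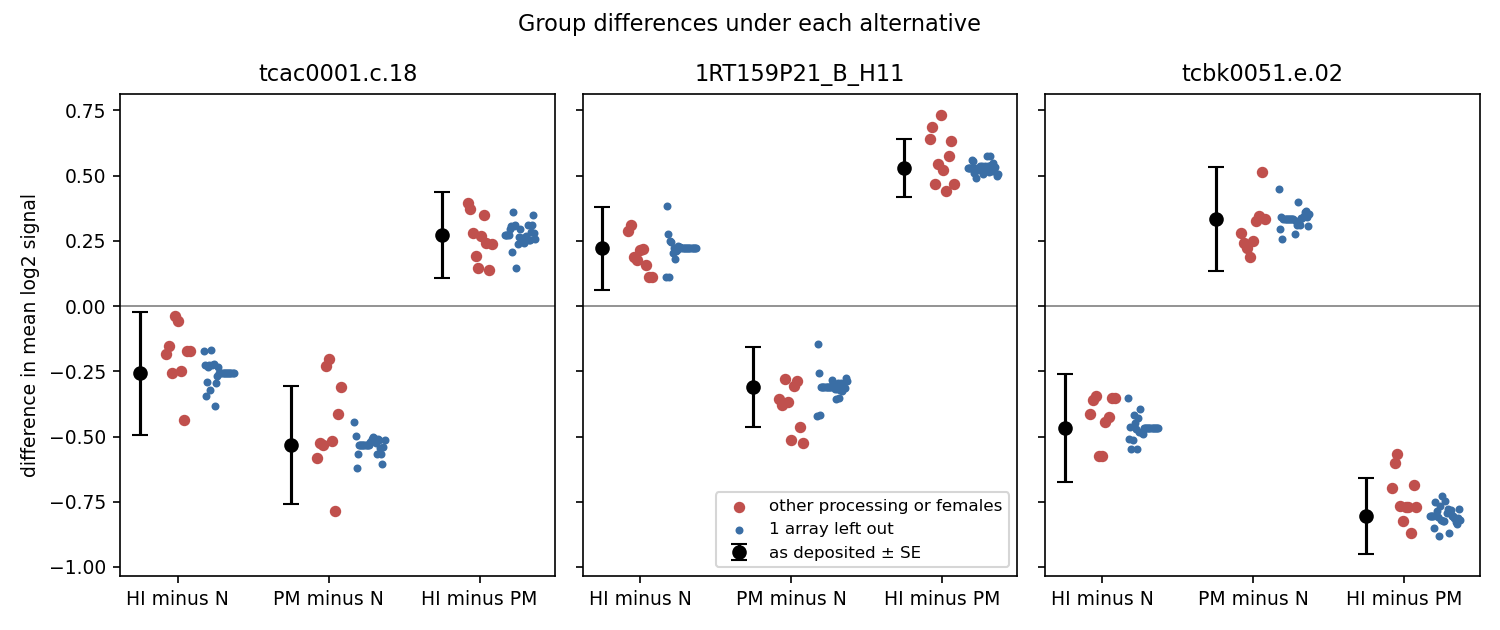
Differences in mean log2 signal (y axis) between groups (x axis) for each clone. Black points with bars are the difference as reported with 1 standard error, red points the other normalizations, covariates and subsets of females, and blue points the 28 values with 1 array left out. Blue points for an array of neither group equal the reported difference by construction. HI minus PM stays between -0.88 and -0.57 for tcbk0051.e.02 and between 0.44 and 0.73 for 1RT159P21_B_H11, and no difference changes sign.

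Dividing by the median leaves arrays with unequal spreads. The interquartile range of the log2 signals of an array averaged 1.53 ± 0.18 (SD) for N, 1.46 ± 0.07 for HI and 1.60 ± 0.10 for PM samples. For tcbk0051.e.02 and this range the Pearson correlation was 0.44 after removal of group means over the 28 arrays, 0.65 in the 14 PM arrays and -0.05 in the 10 HI arrays. For 1RT159P21_B_H11 the correlation was -0.15 over all arrays, 0.12 in HI and -0.12 in PM arrays. For tcac0001.c.18 it was 0.01 over all arrays, with opposite signs in HI (0.40) and PM arrays (-0.32). With the interquartile range as a covariate, HI minus PM of tcbk0051.e.02 was -0.57 in place of -0.80, and that of 1RT159P21_B_H11 was 0.47 in place of 0.53.

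The ovulation group accounted for an unequal part of the variation of the 3 clones between females. It took up 50.2% of the sum of squares of tcbk0051.e.02, 45.1% of that of 1RT159P21_B_H11 and 17.4% of that of tcac0001.c.18. The percentage of normal alevins, fitted after the group, took up 2.80%, 0.911% and 15.2%. The rest, 47.0%, 54.0% and 67.4%, was left between females of a group and between arrays, which cannot be told apart with 1 array per female. The clones were chosen on differences between these groups, so that nothing is read from the size of the group shares. Shares over all clones were not computed, for group or for quality. The SD within groups was 0.44 for tcac0001.c.18, larger than that of 97.7% of all clones, 0.39 for tcbk0051.e.02 (95.2%) and 0.28 for 1RT159P21_B_H11 (78.0%), where the median clone had 0.23.

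The relation to egg quality was tested with group means removed, which makes it independent of the group differences. Clone tcac0001.c.18 had the steepest slope of the 3. Its slope was 0.0568 on the log2 scale per 10 percentage points of normal alevins, all groups together (standard error 0.022, 95% confidence interval 0.0120 to 0.102, unadjusted p = 0.0145 from limma). A larger slope was found for 0.287% of all clones. The size of a slope grows with the spread of a clone, and this clone varied more within groups than 97.7% of all clones. Ranked by the p-value from limma, it was number 143 of the 8350. The slope did not pass adjustment over the 8350 clones (adjusted p = 0.816 from limma). The slopes of 1RT159P21_B_H11 (-0.0110, standard error 0.0163, adjusted p = 0.963) and tcbk0051.e.02 (-0.0274, standard error 0.0208, adjusted p = 0.927) did not pass either, with 95% intervals of -0.0441 to 0.0222 and -0.0696 to 0.0148. Without the samples that share a female number, the slopes of tcac0001.c.18, 1RT159P21_B_H11 and tcbk0051.e.02 were 0.0542, -0.0025 and -0.0423 (adjusted p = 0.585, 0.98 and 0.585 from limma). An unadjusted p under 0.05 was thus found for 1 of the 3 clones, beside 5.89% of all 8350 clones (492), and an adjusted p under 0.05 for 0 of the 3 beside 0% of all clones.

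In the PM group, tcac0001.c.18 was uniform in eggs below 37% normal alevins and scattered in better ones. The 6 PM females below 37% normal alevins had 1.27 to 1.59, with a mean of 1.43 ± 0.12 (SD). The 6 from 37 to 90% had 1.39 to 2.63, with a mean of 1.93 ± 0.48. The 2 above 90% had 1.77 and 1.45. The order of the classes was thus not the order of the signal, since the best PM eggs lay below the mean of the middle class. The uniformity depended on the bound of 37%. With a bound of 50%, the 9 PM females below it had 1.27 to 2.13, with an SD of 0.25. The slope within PM was 0.0618 (standard error 0.0295, unadjusted p = 0.0445, adjusted p = 0.32 from limma). It was 0.0408 without PM replicate 12, the highest PM female, and 0.0831 without PM replicate 14. Without N replicate 1 and PM replicate 4 it was 0.0573 (adjusted p = 0.337 from limma). Unadjusted, 15.1% of all clones (1263) passed within PM and 1 of the 3 did; adjusted, 0 did.

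In the HI group the slope of tcac0001.c.18 was 0.0508 (standard error 0.034, adjusted p = 0.982 from limma). It moved both ways with single females. It was 0.0190 without HI replicate 8, the female with a signal of 3.08 and 90.6% normal alevins, and 0.073 without HI replicate 3. The 4 HI females below 37% had 1.76 ± 0.57 (SD) and the 4 above 90% had 2.28 ± 0.58. Unadjusted, 5.04% of all clones (421) passed within HI and 0 of the 3 did. The difference of the slopes, PM minus HI, was 0.0110 with a 95% interval of -0.0808 to 0.103, so that neither a steeper nor a shallower slope in PM eggs could be told (adjusted p = 0.94 from limma).

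No slope of the other clones passed within a group. For tcbk0051.e.02 the slope was -0.0254 within HI and -0.0284 within PM (adjusted p = 0.988 and 0.668 from limma). Both values moved with single females. The HI value was -0.0052 without HI replicate 1, -0.0059 without HI replicate 9, -0.0137 without HI replicate 5, -0.0169 without HI replicate 7 and -0.0486 without HI replicate 2. The PM value moved to -0.0066 without PM replicate 1, to -0.0565 without PM replicate 4 and to -0.0477 without PM replicate 13. PM replicate 1, which had the highest tcbk0051.e.02 signal (2.45), gave 0% eyed embryos. For 1RT159P21_B_H11 the slope was 0.0093 within HI and -0.0261 within PM (adjusted p = 0.994 and 0.591). The HI value ran from -0.0064 without HI replicate 1 to 0.0159 without HI replicate 5, with 0.0014 without HI replicate 2. The PM value was -0.0118 without PM replicate 4, -0.0146 without PM replicate 13 and -0.0414 without PM replicate 1. PM minus HI was -0.0354 for 1RT159P21_B_H11 (95% interval -0.102 to 0.0313) and -0.0030 for tcbk0051.e.02 (-0.0897 to 0.0838), with 0 of the 3 clones past an unadjusted p of 0.05 beside 13.7% of all clones.

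**Figure D3:**
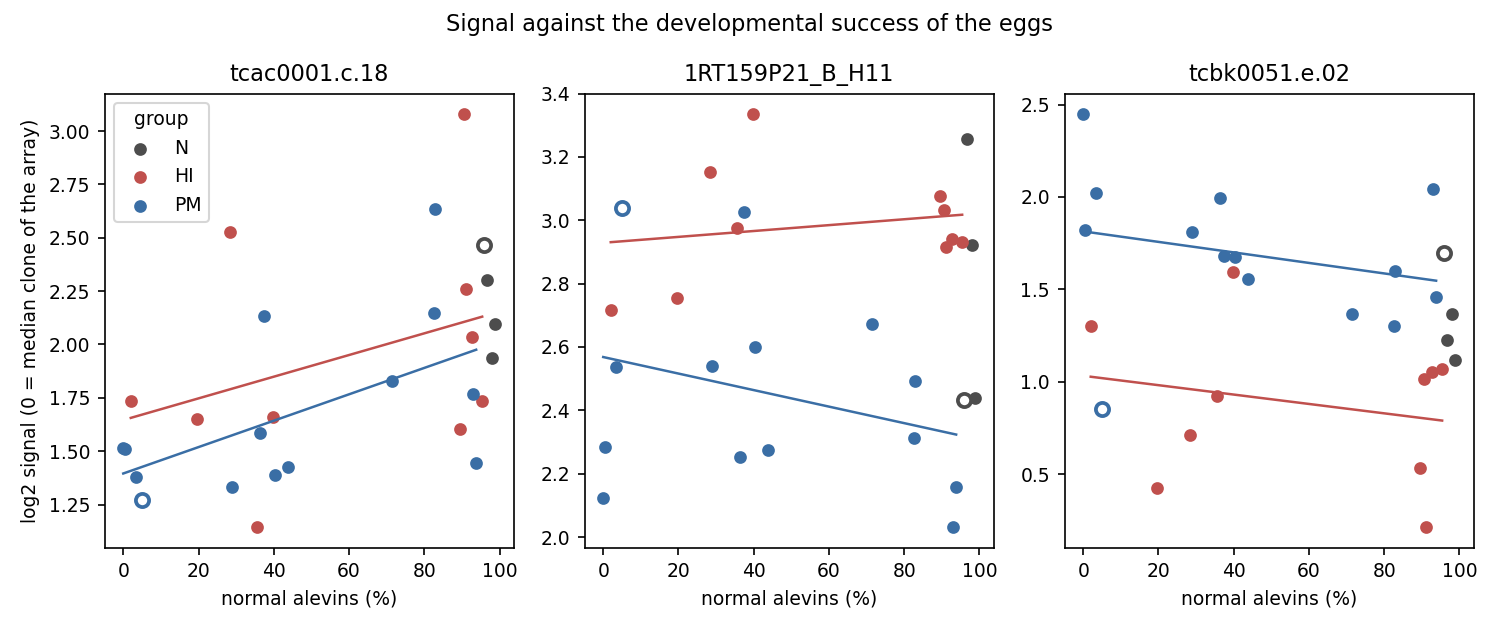
Log2 signal (y axis) of each clone against the percentage of normal alevins (x axis), with 1 point per female, coloured by group, and least-squares lines for HI and PM females. Open circles are N replicate 1 and PM replicate 4. The lines of tcac0001.c.18 have slopes of 0.0508 (HI) and 0.0618 (PM) per 10 points, and neither slope passed adjustment over all clones.

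The other measures of quality gave no slope that passed. Per 10 percentage points of eyed embryos, the log2 slope was 0.0439 for tcac0001.c.18 (standard error 0.0233, unadjusted p = 0.0683, adjusted p = 0.918 from limma), 0.0010 for 1RT159P21_B_H11 (adjusted p = 0.996) and -0.0300 for tcbk0051.e.02 (adjusted p = 0.938). None of the 3 passed an unadjusted p of 0.05, beside 5.5% of all clones. In females with low survival the malformed share rested on few alevins, as in PM replicate 2 (50% malformed, 0.5% normal alevins). The fit gave such females the same weight as others. Malformed alevins could be scored for 27 females. Their slopes were -0.0427 for tcac0001.c.18, 0.0264 for 1RT159P21_B_H11 and -0.0377 for tcbk0051.e.02 (adjusted p = 1 for each from limma), again with 0 of the 3 at an unadjusted p under 0.05 beside 2.51% of all clones.

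The 3 clones were also compared with each other within the HI and within the PM group, which gave 6 pairs. The correlation of largest size was that of 1RT159P21_B_H11 with tcbk0051.e.02 in PM eggs, with a Pearson's r of -0.55 (n = 14, 95% interval -0.84 to -0.03, p = 0.0407 by a two-sided permutation test, adjusted p = 0.244 over the 6 pairs) and a Spearman's rho of -0.50 (p = 0.0696, adjusted p = 0.418). It did not pass adjustment. PM replicate 4 held the highest 1RT159P21_B_H11 and the lowest tcbk0051.e.02 signal, and without it r was -0.33 (n = 13, permutation p = 0.27). Leaving out the 2 females farthest from the 1RT159P21_B_H11 median gave an r of -0.39 (permutation p = 0.211). After quantile normalization of the arrays r was -0.74 (adjusted p = 0.0124), and -0.58 without PM replicate 4 (permutation p = 0.0357, adjusted p = 0.214). Spearman's rho after this normalization was -0.62 with all PM females (permutation p = 0.0208, adjusted p = 0.125).

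In HI eggs the same clones gave r = 0.32 (n = 10, 95% interval -0.39 to 0.79, permutation p = 0.374). The other 4 pairs, which involve tcac0001.c.18, had r between -0.12 and 0.15 (lowest permutation p = 0.68, adjusted p = 0.826 for each). The narrow range rested in part on PM replicate 4. Without it, r in PM eggs was 0.28 in place of 0.07 with 1RT159P21_B_H11 (n = 13, permutation p = 0.351) and -0.36 in place of -0.09 with tcbk0051.e.02 (permutation p = 0.236), with an adjusted p of 0.561 for both. No correlation of tcac0001.c.18 with the others was detectable with this number of females, and intervals as wide as -0.53 to 0.71 do not show that the clones vary independently.

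**Figure D4:**
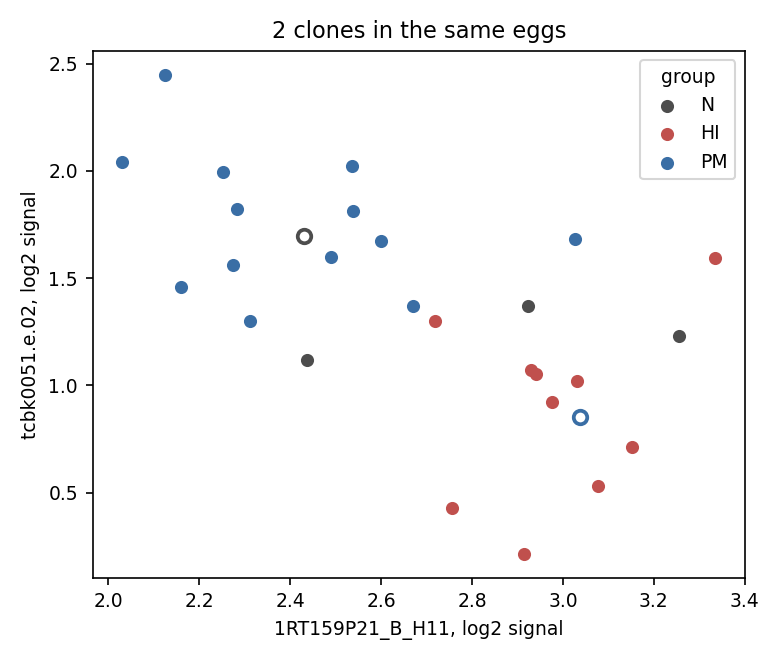
Log2 signal of tcbk0051.e.02 (y axis) against that of 1RT159P21_B_H11 (x axis) in the eggs of the same female, with 1 point per female, coloured by group, and open circles for N replicate 1 and PM replicate 4. Most PM females lie at the upper left and most HI females at the lower right. PM replicate 4 lies among the HI females, and PM replicate 7 and HI replicate 5 lie at the upper right.

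For each clone, the clones with the most similar pattern were sought over all arrays, as the Pearson correlation of log2 signal after removal of group means. Arrays share their scaling, and these correlations are descriptions. Clone tcac0001.c.18 was most like tcac0001.d.02 (0.84), 1RT159P23_B_H12 (0.76) and tcay0025.e.22 (0.76), over 28 arrays each. The correlation with tcac0001.d.02 was 0.86 within HI and 0.89 within PM, and 0.83 after quantile normalization. By their names, tcac0001.d.02 and tcac0001.c.18 come from the same library and plate and differ in row and column. Whether the plate or the spotting has a part in this likeness was not tested. Among clones the study names, the nearest were TGFBR2 (0.69), the type II receptor of transforming growth factor beta, and AGM1 (0.67), an enzyme of amino sugar synthesis. TGFBR2 and AGM1 come from the study's list of clones linked to egg quality in these samples.

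Clone 1RT159P21_B_H11 was most like 1RT53K16_C_F08 (0.85 over 28 arrays, 0.81 without the samples that share a female number) and tcay0027.f.01 (0.80, and 0.65 after quantile normalization). Of the named clones, the second and the third in this order were RBM5 (0.65), a splicing regulator, and RPN2 (0.60), which takes part in the N-glycosylation of proteins in the endoplasmic reticulum. Without the samples that share a female number these were 0.54 and 0.48.

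Clone tcbk0051.e.02 was most like tcba0005.e.10 (0.72), SEC22 (0.71), a protein of vesicle transport between endoplasmic reticulum and Golgi, and 1RT155E20_C_C10 (0.69). SEC22 correlated with it by 0.52 within HI and 0.87 within PM eggs. The next named clone was DAB2 (0.49 over 24 arrays), an endocytic adaptor, with 0.36 after quantile normalization. RBM5, RPN2, SEC22 and DAB2 come, like the 3 clones, from the study's list of clones that differ between groups.

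The mitochondrial annotation of tcac0001.c.18 was set beside HSPA9B, PHB2 and PYC, named clones of proteins that work in mitochondria. Ribosomal proteins were not part of this list. HSPA9B is the matrix chaperone that drives protein import, PHB2 is a prohibitin of the inner membrane and PYC is the matrix enzyme pyruvate carboxylase. After removal of group means, the correlation of tcac0001.c.18 was 0.06 with HSPA9B, 0.07 with PYC and -0.08 with PHB2.

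By group, the mean log2 signal of HSPA9B was 1.84 ± 0.40 (SD, n = 4) for natural ovulation, 1.56 ± 0.29 (n = 10) for hormonal induction and 2.15 ± 0.28 (n = 14) for photoperiod manipulation, so that PM eggs were highest where tcac0001.c.18 was lowest. The means of PYC were 0.72 ± 0.20 (4 N females), 0.44 ± 0.30 (8 HI females with a value) and 0.51 ± 0.24 (13 PM females with a value), and the PHB2 means lay between -0.13 and -0.07 in the 3 groups. For PYC, the study reports the opposite order of N and PM by real-time PCR, with more PYC mRNA in PM eggs. HSPA9B and PYC come, like tcac0001.c.18, from the study's list of clones that differ between groups, so that nothing is read from their group order. With quality, within groups, 0 of these 3 mitochondrial clones passed an adjusted p of 0.05, beside 0% of all 8350 clones. An unadjusted p under 0.05 was found for 5.89% of all clones. PHB2, which the study chose for its link to quality in these samples, had a slope of -0.0308 (unadjusted p = 0.00442, adjusted p = 0.778 from limma), against 0.0309 for PYC (adjusted p = 0.846) and -0.0103 for HSPA9B (adjusted p = 0.966). For PHB2 the study also reports a significant negative correlation with normal alevins by real-time PCR, which was not analysed here.

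Of the other facts of the arrays, 8146 to 8655 of the 9023 clones had a signal above 0. For markers of plasma and liver, clones of APOB, TF and APOC1 had a summed signal of 2.38 to 3.07 (in units of the array median) in N, 2.63 to 3.85 in HI and 1.98 to 3.68 in PM eggs, ranges that overlap, and their part in the values of the 3 clones was not tested. APOC1 comes from the study's list of clones that differ between groups, and APOB and TF from its list linked to egg quality. Markers of the egg itself, of follicle cells and of red blood cells were not analysed here.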

How the data were processed

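Total RNA from unfertilized eggs was reverse transcribed with a radioactive label, and the product was hybridised to nylon arrays of trout cDNA clones, each spotted in duplicate. The deposited values are spot intensities on a linear scale. Before deposit the authors left out spots with a low vector oligonucleotide signal, corrected the signals for the DNA present in a spot and scaled arrays by their median. The sources used here do not state how duplicates were combined. Of 9216 rows, 193 that are no clone were left out. A value of 0 (6.59% of clone values) was taken as missing. Clones needed 20 values or more, with 2 or more in each group, and the 8350 that had them were fitted on log2 signal, with no pseudocount, with limma 3.58.1 in R 4.3.3. One fit of 3 group means gave the differences, and slopes on the percentages were fitted with group as a term, with Benjamini-Hochberg adjustment over all clones. The study's SAM software was not run. Correlations between clones used 100000 permutations (scipy 1.17.1). The number of arrays limits the precision. Apart from the female number that 2 samples share, each array is a separate female, so the spread is that between females and arrays together.

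The 3 clones and all lists were chosen with earlier results of these data known. Named clones are the 3 members, for each the 3 clones with the highest correlation among clones with at least 20 shared values and the 2 highest among clones the study names, and the mitochondrial clones HSPA9B, PHB2 and PYC. One clone that this rule names, among the 3 nearest to 1RT159P21_B_H11 and the nearest with a name, is not reported here, and the next named clone is given in its place. Further HI eggs and PCR measurements were not used here. Slope fits were tested on simulated data. Alternatives were quantile normalization, scaling to 1 median absolute deviation, the interquartile range of the arrays or egg quality as a covariate, subsets of females, a pseudocount of 0.1 with zeros kept, clones with complete values, ranks of females, array weights, a variance model with trend and robust estimation, no group term, the replicate number as a block, and each array left out.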

Additional observations from a re-analysis of the deposited data

How the results depend on the processing

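Of 801 alternative values for the 3 clones, 23 had the opposite sign of the value reported. All of these were slopes or correlations whose main value did not pass its test. Among the 801 are values with an array left out that lies outside the groups of the difference or slope. These equal the value reported by construction, so that the share of unchanged signs is no measure of stability. Group differences have no p, and of the slopes and correlations 1 value passed an adjusted p of 0.05. No group difference changed sign. The quality slope of 1RT159P21_B_H11 within groups was 0.0021 with arrays scaled to 1 median absolute deviation and 0.0075 with no group term, and within HI it was -0.0088 after quantile normalization. Its slope on eyed embryos was -0.0024 with the interquartile range as a covariate. PM minus HI of the slopes of tcbk0051.e.02 was 0.0140 after quantile normalization, 0.0127 with scaled arrays and 0.0128 with the interquartile range as a covariate. The correlation of tcac0001.c.18 with 1RT159P21_B_H11 in HI eggs was -0.33 after quantile normalization, and that of 1RT159P21_B_H11 with tcbk0051.e.02 in PM eggs was -0.74, the 1 value to pass (adjusted p = 0.0124). For the latter pair, neither Spearman's rho after quantile normalization (-0.62, adjusted p = 0.125 by permutation) nor r without PM replicate 4 (-0.58, adjusted p = 0.214 by permutation) passed. In each case the cause was not tested.

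With 1 array left out, the slope within groups was from 0.0441 to 0.0674 for tcac0001.c.18, from -0.0194 to -0.0023 for 1RT159P21_B_H11 and from -0.0425 to -0.0157 for tcbk0051.e.02 (lowest adjusted p = 0.527, 0.765 and 0.645 from limma). The slope of 1RT159P21_B_H11 within HI ran from -0.0064 to 0.0159. The difference of slopes ran from -0.0112 to 0.0429 for tcac0001.c.18 and from -0.031 to 0.0201 for tcbk0051.e.02, and so had no settled sign. Replicate numbers rank the females of a group by egg quality and do not pair them. With the replicate number as a block, HI minus PM was 0.35, 0.44 and -0.77 for tcac0001.c.18, 1RT159P21_B_H11 and tcbk0051.e.02, PM minus N was -0.78, -0.29 and 0.35, HI minus N was -0.43, 0.16 and -0.42, and the slopes within groups were 0.1215, -0.0450 and -0.0790 (adjusted p = 0.717, 0.861 and 0.778 from limma). With egg quality as a covariate, HI minus N of tcac0001.c.18 was -0.04 and PM minus N -0.23, and PM minus N of tcbk0051.e.02 was 0.19 in place of 0.34. With scaled arrays, HI minus N of tcac0001.c.18 was -0.15 in place of -0.26.

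The HI group and its year cannot be told apart, nor can the PM treatment and the holding and history of its females. Only 4 N females were hybridised, and array noise cannot be separated from differences between females. Settings chosen after the data were seen were the females below 50% normal alevins, the PM slopes and pair correlations without the samples that share a female number, and the interquartile range as a covariate without these samples, which gave HI minus PM of 0.14 for tcac0001.c.18, 0.63 for 1RT159P21_B_H11 and -0.68 for tcbk0051.e.02.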
